A study of Mus musculus with 12 samples.

Results

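The transcripts described here encode 9 regulators that act directly beneath CD40 and the Toll-like receptors: Tnfaip3 (A20), Traf1, Traf2, Traf3, Traf5, Traf6, Birc2 (cIAP1), Birc3 (cIAP2) and Cflar (c-FLIP). They were taken as the array probes named for one of these genes, which gave 12 probes for 9 of the 50090 distinct gene names on the array. Of these genes 8 had 1 probe and Cflar had 4, and a gene was represented by its brightest probe. All 12 probes were well above background on all 12 arrays and none was saturated, so no gene was lost to the filter on dim probes.

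Resting B (RB) cells, isolated from BALB/c spleens by depleting CD43-positive cells, were profiled after 4 h of culture with 1-colour arrays, 2 for each of 6 conditions. The cells were unstimulated or received Pam2CSK4 (a synthetic lipopeptide ligand of TLR-2), anti-CD86 antibody, anti-CD86 with Pam2CSK4 (the study's TLR2.CD86 stimulation), anti-CD40 antibody (which stands in for the T cell ligand of CD40), or anti-CD40 with Pam2CSK4. In the study's methods the anti-CD86 antibody carried biotin and was cross-linked with streptavidin before culture. The labels give female mice 6 weeks old for every array, while the study's methods name both sexes. The study calls its arrays biological replicates, whether the mice were pooled is not given in the sources used here, and no array with an isotype control antibody was analysed here. Each level below is the log2 processed signal minus the 75th percentile of its own array, so 1 unit is a doubling and a level of 0 is the signal that 75% of the spots do not exceed. Because probes differ in how brightly they hybridise, levels were compared between conditions for the same probe and never between genes.

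TRAF proteins are adaptors that bind the cytoplasmic tails of TNF receptor family members. TRAF2 and TRAF3 form a complex with the ubiquitin ligases cIAP1 and cIAP2. Without a signal from CD40 this complex degrades the kinase NIK and so holds the non-canonical NF-kB pathway off. TRAF6 serves CD40 and is the main adaptor of Toll-like receptors below MyD88 and the IRAK kinases. TRAF1 lacks the RING domain of the other TRAF proteins and joins their complexes, A20 edits ubiquitin chains and ends NF-kB signaling, and c-FLIP blocks the activation of caspase-8. Tnfaip3, Traf1, Birc3 and Cflar are well known NF-kB target genes, which is why the group is described as feedback genes.

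The 300-base windows around the annotated starts of these genes (250 bases before to 50 bases after, RefSeq, GRCm38.p6) were found for 9 of 9 members, with 11 windows since Tnfaip3 and Birc2 each have a second start. Both strands were searched for the NF-kB site consensus. The consensus was present in 2 of the 11 windows, of Tnfaip3 and Traf3, and in 4.51% of all 32851 windows. The windows shown are those with a consensus match, that of the gene that fell after anti-CD40 (Traf5), and those of the genes with the 2 largest increases (Traf1 and Birc3), in all 3 of which the consensus did not occur. Sequences run 5′ to 3′ on the strand of the gene and capitals mark the matches.
Tnfaip3 (chr10:19015361-19015660, minus strand): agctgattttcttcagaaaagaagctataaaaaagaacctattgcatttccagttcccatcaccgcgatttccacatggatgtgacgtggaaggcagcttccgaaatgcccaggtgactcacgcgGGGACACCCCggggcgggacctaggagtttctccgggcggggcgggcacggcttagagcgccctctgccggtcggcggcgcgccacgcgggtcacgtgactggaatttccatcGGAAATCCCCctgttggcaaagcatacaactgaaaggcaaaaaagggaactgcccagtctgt
Traf3 (chr12:111166120-111166419, plus strand): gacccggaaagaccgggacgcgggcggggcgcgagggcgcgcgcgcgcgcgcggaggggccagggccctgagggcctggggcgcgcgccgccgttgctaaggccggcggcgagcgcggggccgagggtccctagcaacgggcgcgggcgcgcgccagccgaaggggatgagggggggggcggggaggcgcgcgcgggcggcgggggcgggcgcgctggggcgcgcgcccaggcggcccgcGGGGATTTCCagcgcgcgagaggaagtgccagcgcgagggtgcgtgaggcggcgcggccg
Traf5 (chr1:192092550-192092849, minus strand): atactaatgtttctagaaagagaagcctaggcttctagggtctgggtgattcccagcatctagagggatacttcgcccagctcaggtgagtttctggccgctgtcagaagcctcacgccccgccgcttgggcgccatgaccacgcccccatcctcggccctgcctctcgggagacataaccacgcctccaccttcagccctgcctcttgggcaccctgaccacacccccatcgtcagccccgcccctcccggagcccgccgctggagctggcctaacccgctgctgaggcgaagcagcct
Traf1 (chr2:34961723-34962022, minus strand): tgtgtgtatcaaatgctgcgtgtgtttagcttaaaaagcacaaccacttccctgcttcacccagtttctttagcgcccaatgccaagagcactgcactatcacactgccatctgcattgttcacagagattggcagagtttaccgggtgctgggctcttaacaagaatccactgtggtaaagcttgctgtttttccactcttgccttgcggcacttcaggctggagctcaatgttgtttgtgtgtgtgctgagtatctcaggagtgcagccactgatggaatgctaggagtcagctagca
Birc3 (chr9:7873121-7873420, minus strand): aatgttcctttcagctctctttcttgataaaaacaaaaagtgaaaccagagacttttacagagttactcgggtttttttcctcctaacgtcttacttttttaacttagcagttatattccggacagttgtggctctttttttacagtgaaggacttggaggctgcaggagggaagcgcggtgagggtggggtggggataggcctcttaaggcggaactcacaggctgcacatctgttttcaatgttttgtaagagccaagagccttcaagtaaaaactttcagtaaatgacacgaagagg
In Tnfaip3 the match at -12 from the start reads GGGGATTTCC on the other strand, the same letters as in Traf3 at -10, where they lie on the strand of the gene. A further Tnfaip3 match at -125 reads GGGACACCCC. These matches describe letters in a window, and the absence of a match in the other 7 genes says only that the letters are not within it. In the same annotation Birc2 and Birc3 are neighbours on chromosome 9, with 0 genes starting between them.

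The array slides bear on every value below. Both unstimulated and both anti-CD40 + Pam2CSK4 arrays were on slide 1, which held 8 arrays, while the other 4 conditions had replicate 1 on slide 1 and replicate 2 on slide 2. In a fit with the slide as a term all 9 members were lower on slide 2, by between 0.11 for Traf6 and 0.40 for Cflar on the log2 scale, as were 12412 of the 18062 probes that differed between slides. The median absolute difference between replicate arrays was 0.09 to 0.11 for the 2 conditions on 1 slide and 0.21 to 0.33 for the others. Differences are given from the fit without the slide, with the value from the fit with it wherever it changes the call. Without the slide, members' differences from unstimulated cells came out lower for the conditions with an array on slide 2. With anti-CD40, for example, Traf1 was 1.06 without the slide and 1.15 with it, Tnfaip3 0.57 and 0.69, and Traf5 -1.30 and -1.18. One array stood apart: anti-CD40 replicate 2, on slide 2, had a median intensity of 51.3 and 60.6% of its spots well above background, against 17.3 to 33.5 and 46.6% to 55.9% on the other 11 arrays. The small number of arrays limits the precision of each value.

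Of the TRAF adaptors, Traf1 moved most. Its level was 3.09 and 3.11 in unstimulated cells, 3.61 and 3.41 with Pam2CSK4, 2.83 and 2.68 with anti-CD86, 3.42 and 3.24 with anti-CD86 + Pam2CSK4, 4.28 and 4.04 with anti-CD40 and 4.69 and 4.81 with anti-CD40 + Pam2CSK4 (replicates 1 and 2). Both conditions with anti-CD40 stood above the other 4 with no overlap, the anti-CD86 arrays were the lowest, and only Pam2CSK4 and anti-CD86 + Pam2CSK4 overlapped among neighbours in the order.

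Traf5, an adaptor that shares partners with TRAF2, had the opposite pattern. Its level was 5.23 and 5.30 in unstimulated cells, 5.07 and 4.94 with Pam2CSK4, 5.59 and 5.36 with anti-CD86, 5.29 and 4.99 with anti-CD86 + Pam2CSK4, 4.10 and 3.83 with anti-CD40 and 3.85 and 4.05 with anti-CD40 + Pam2CSK4. The arrays of both conditions with anti-CD40 lay below every other array and overlapped each other, and the anti-CD86 arrays were the highest.

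Traf6, the adaptor of the Toll-like receptor branch, was at 1.71 and 1.65 in unstimulated cells, 1.81 and 1.74 with Pam2CSK4, 1.87 and 1.85 with anti-CD86, 1.81 and 1.60 with anti-CD86 + Pam2CSK4, 2.47 and 2.34 with anti-CD40 and 2.62 and 2.57 with anti-CD40 + Pam2CSK4. The conditions without anti-CD40 lay within a narrow band, in which anti-CD86 + Pam2CSK4 overlapped both Pam2CSK4 and unstimulated cells, and both conditions with anti-CD40 lay above it.

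Traf3, the adaptor that restrains NIK, was at 2.59 and 2.64 in unstimulated cells, 3.04 and 2.75 with Pam2CSK4, 3.02 and 2.77 with anti-CD86, 3.31 and 2.88 with anti-CD86 + Pam2CSK4, 2.95 and 2.64 with anti-CD40 and 3.41 and 3.50 with anti-CD40 + Pam2CSK4. The unstimulated arrays were the lowest and the anti-CD40 + Pam2CSK4 arrays the highest, and the 4 conditions between them overlapped from one neighbour to the next. Traf2, its partner in the complex that degrades NIK, kept between 4.96 and 5.50 on all 12 arrays, with group means from 5.04 ± 0.12 (SD, n = 2) with anti-CD86 to 5.49 ± 0.0036 with anti-CD40 + Pam2CSK4.

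Birc2 and Birc3, the cIAP ubiquitin ligases that work with TRAF2, were both highest in the cells given anti-CD40. Birc2 was at 3.21 and 3.23 in unstimulated cells, 3.47 and 3.37 with Pam2CSK4, 3.44 and 3.41 with anti-CD86, 3.36 and 3.20 with anti-CD86 + Pam2CSK4, 4.19 and 4.01 with anti-CD40 and 4.16 and 4.24 with anti-CD40 + Pam2CSK4. The 2 conditions with anti-CD40 overlapped each other and none of the rest. Birc3 was at 5.70 and 5.28 in unstimulated cells, 6.05 and 5.82 with Pam2CSK4, 5.53 and 5.49 with anti-CD86, 5.78 and 5.64 with anti-CD86 + Pam2CSK4, 6.57 and 6.29 with anti-CD40 and 6.89 and 6.80 with anti-CD40 + Pam2CSK4. The unstimulated arrays were the most widely spaced for this gene, although on 1 slide, and overlapped those of anti-CD86 and of anti-CD86 + Pam2CSK4.

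Tnfaip3, the ubiquitin-editing brake on NF-kB, was at 5.80 and 5.79 in unstimulated cells, 6.12 and 5.91 with Pam2CSK4, 5.65 and 5.46 with anti-CD86, 5.95 and 5.70 with anti-CD86 + Pam2CSK4, 6.50 and 6.24 with anti-CD40 and 6.76 and 6.73 with anti-CD40 + Pam2CSK4. It followed the order of Traf1, with anti-CD86 lowest and both anti-CD40 conditions above all other arrays. Cflar, the caspase-8 inhibitor, was at 4.33 and 4.42 in unstimulated cells, 4.43 and 4.11 with Pam2CSK4, 3.88 and 3.50 with anti-CD86, 4.20 and 3.78 with anti-CD86 + Pam2CSK4, 4.76 and 4.28 with anti-CD40 and 5.05 and 5.18 with anti-CD40 + Pam2CSK4. Only the anti-CD40 + Pam2CSK4 arrays stood clear of all others, and each other condition overlapped its neighbour in the order.

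**Figure D1:**
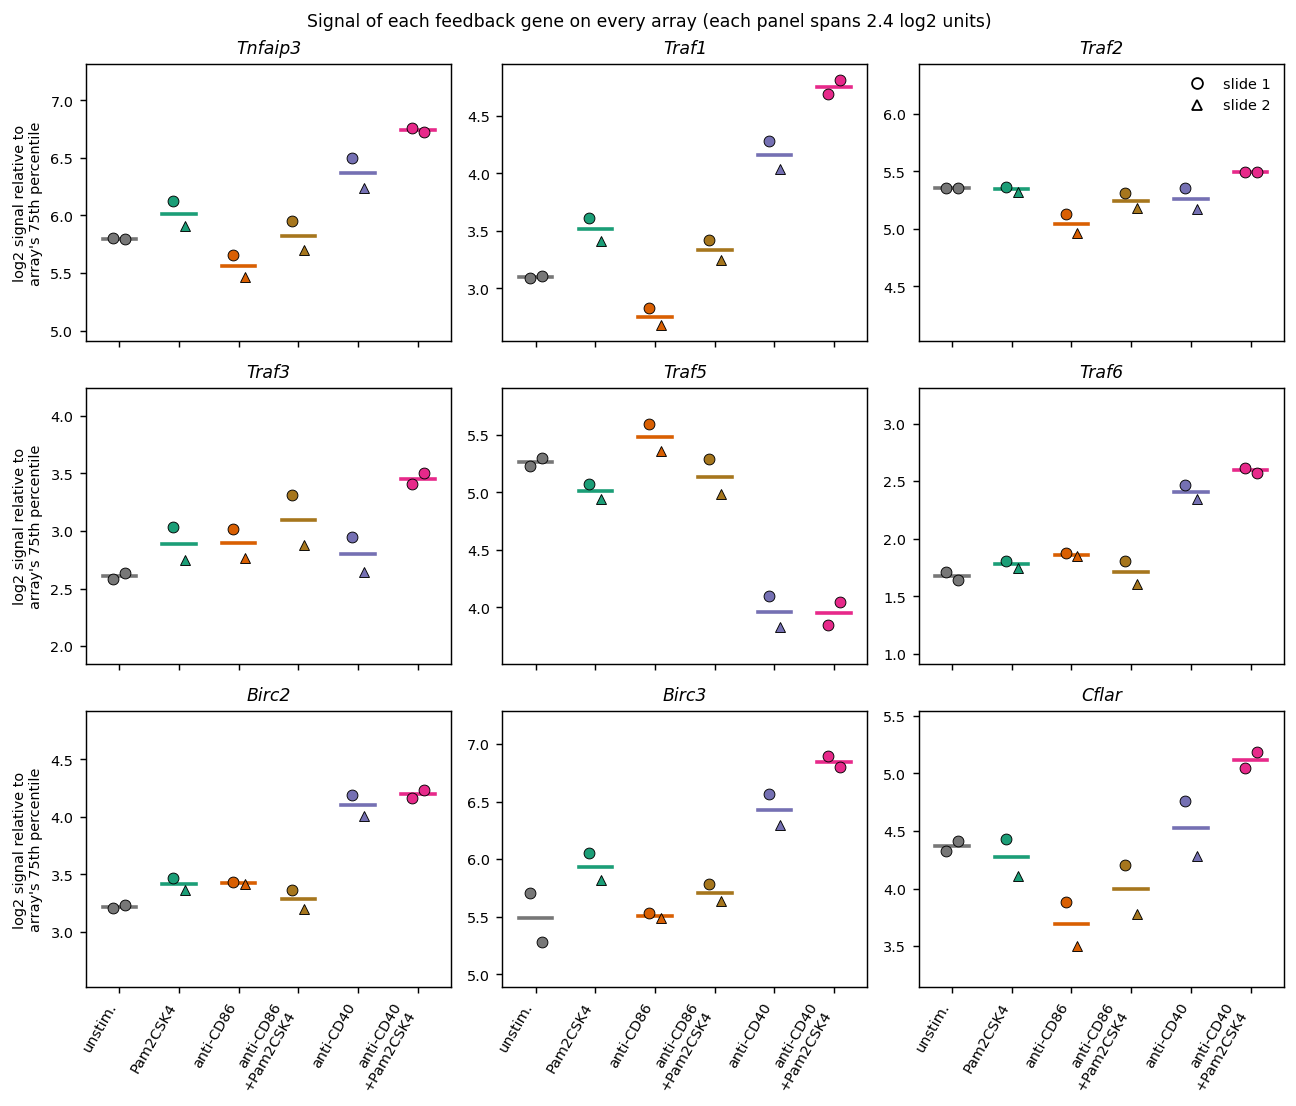
Level of each of the 9 genes on every array, as log2 signal minus that array's 75th percentile, by condition; circles are arrays on slide 1, triangles arrays on slide 2 and bars the mean of 2 arrays. Traf1, Traf6, Birc2, Birc3 and Tnfaip3 sit higher and Traf5 lower in the 2 conditions with anti-CD40 than in the other 4 on this scale.

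Over all 6 conditions, the moderated F test of limma called 7 of the 9 genes at an adjusted p under 0.05, against 20.4% of the 31601 probes tested. Traf1 had the smallest adjusted p (0.000664), followed by Traf5 (0.0020), and Traf2 (0.144) and Traf3 (0.0882) did not pass. Since bulk RNA was measured, a change in the share of a cell type and a change in RNA per cell cannot be told apart.

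Anti-CD40 alone raised 5 of the 9 genes relative to unstimulated cells and lowered 1, where the same test called 16.8% of all probes (6.16% higher and 10.7% lower). Traf1 rose 2.08-fold (log2 difference 1.06 ± 0.14 SE, adjusted p = 0.00393 in limma), Birc3 1.92-fold (0.94 ± 0.17, 0.0123) and Birc2 1.84-fold (0.88 ± 0.11, 0.00419). Traf6 rose 1.66-fold (0.73 ± 0.11, adjusted p = 0.00708) and Tnfaip3 1.49-fold (0.57 ± 0.15, 0.0359). Traf5 fell by 1.30 ± 0.16 on the log2 scale, to a level 2.46-fold lower (adjusted p = 0.00333). The differences for Traf2 (-0.09), Traf3 (0.19) and Cflar (0.15) did not pass. The members' median difference was 0.57 and that of all probes -0.02. The calls of Traf1, Traf5 and Birc2 held when any 1 of the 4 arrays was left out. The Tnfaip3 call was lost whichever of the 4 was left out, Traf6's without either unstimulated array (adjusted p up to 0.0714), and Birc3's without unstimulated replicate 2 (0.0945). In the fit with the slide 8 genes passed (37.3% of all probes), now with Traf3 (0.35) and Cflar (0.35) among those higher.

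Scaling mattered for this comparison. When each array was centred on its median instead of its 75th percentile, the median difference of all probes between anti-CD40 and unstimulated cells moved by -0.57. Only Traf5 of the members then passed, and of all probes 348 did, against 5323 with the 75th percentile. On that scale the values were 0.49 for Traf1, 0.37 for Birc3, 0.31 for Birc2, 0.16 for Traf6 and 0.00 for Tnfaip3, and those of Traf3 and Cflar turned to -0.38 and -0.42. The median processed intensity was 0.778 to 1.12 times the dimmest signal well above background on the slide 1 arrays, and 0.944 to 1.85 times on the slide 2 arrays, the highest being anti-CD40 replicate 2. An alternative chosen after seeing the data was the median scaling with that array left out. The differences were then 1.13 for Traf1, 1.02 for Birc3, 0.92 for Birc2, 0.74 for Traf6, 0.65 for Tnfaip3 and -1.22 for Traf5. Those of Traf3 (0.29) and Cflar (0.34) were above 0. With 1 anti-CD40 array left, these are sizes only. Under quantile normalization all 32 calls of members reported for single comparisons were kept, and under median centring 2 were, with the direction unchanged in all 32. Calls over all probes in these comparisons numbered 3150 to 5763 with the 75th percentile. They numbered 3972 to 6428 under quantile normalization and 241 to 464 under median centring, so the loss was not particular to the members.

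Anti-CD40 with Pam2CSK4 called 7 of the 9 genes against unstimulated cells (18.2% of all probes), 6 of them higher (8.54% of all probes) and 1 lower (9.70%). Traf1 reached 3.14-fold (1.65 ± 0.14, adjusted p = 0.000298), Birc3 2.56-fold (1.35 ± 0.17, 0.00185), Birc2 1.97-fold (0.98 ± 0.11, 0.0014), Tnfaip3 1.93-fold (0.94 ± 0.15, 0.00437) and Traf6 1.89-fold (0.92 ± 0.11, 0.0016). Traf3 rose 1.79-fold (0.84 ± 0.19, adjusted p = 0.0186), a call that was lost when any 1 of the 4 arrays was left out. Traf5 fell by 1.31 ± 0.16 (adjusted p = 0.00163). All 4 arrays of this comparison were on slide 1. Cflar, 1.67-fold higher, narrowly missed (0.74 ± 0.22, adjusted p = 0.0552) and passed in the fit with the slide, which called 8 genes (47.5% of all probes).

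**Figure D2:**
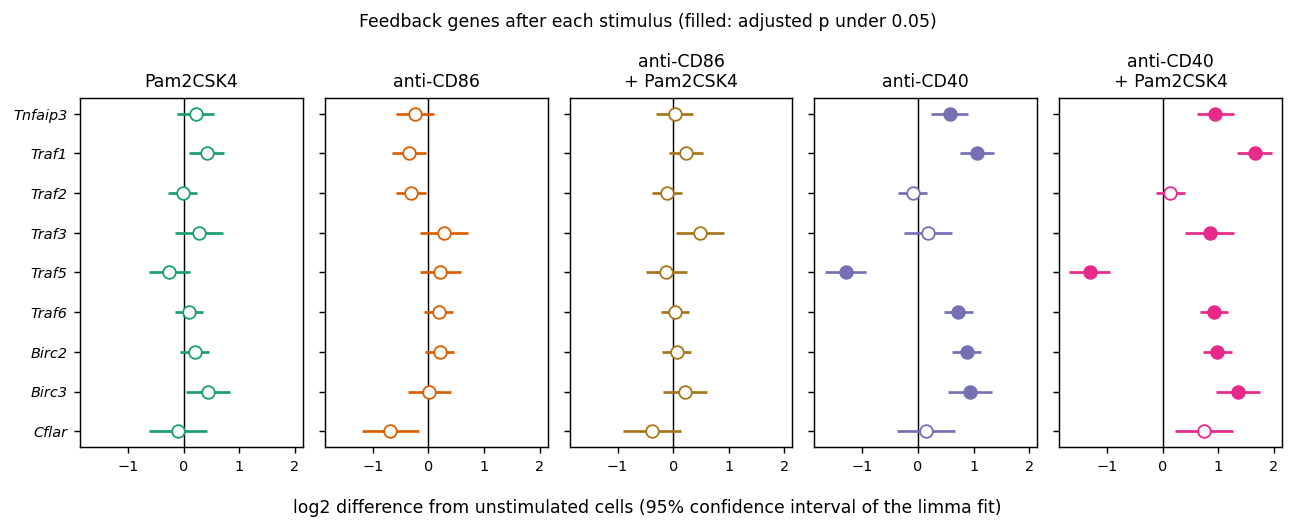
Log2 difference of each gene from unstimulated cells after each of the 5 stimuli, with the 95% confidence interval of the limma fit; filled points passed at an adjusted p under 0.05. No point is filled for Pam2CSK4, anti-CD86 or both together, 6 are filled for anti-CD40 and 7 for anti-CD40 + Pam2CSK4.

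Whether Pam2CSK4 added to anti-CD40 was tested directly. In the comparison of anti-CD40 + Pam2CSK4 with anti-CD40 alone 0 of 9 genes passed, where limma called 2.90% of all probes. An unadjusted p under 0.05 was reached by 5 genes and by 6250 of the 31601 probes tested. The largest differences were 0.66 (95% interval 0.22 to 1.09) for Traf3, 0.60 (0.08 to 1.11) for Cflar and 0.59 (0.28 to 0.90) for Traf1, whose adjusted p was 0.0632. Traf5 differed by -0.01 (-0.38 to 0.36). The fit with the slide placed 4 genes higher, Tnfaip3 by 0.26, Traf1 by 0.50, Traf3 by 0.50 and Cflar by 0.40, among 15.2% of all probes. On slide 1 alone, where anti-CD40 has 1 array, the same 4 differences were 0.24, 0.47, 0.50 and 0.36 and 0 genes passed. The interaction, which asks whether the effect of Pam2CSK4 differed with anti-CD40 present, passed for 0 of 9 genes (1.16% of all probes). Its values ran from -0.10 for Birc2 to 0.70 for Cflar. It had an unadjusted p under 0.05 for 0 genes and for 6131 of the 31601 probes tested.

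Pam2CSK4 alone called 0 of the 9 genes, in a comparison that called 0.146% of all probes. Birc3 was 0.44 ± 0.17 higher and Traf1 0.41 ± 0.14, the 2 genes with an unadjusted p under 0.05, which 5006 of the 31601 probes tested had. Adding the slide to the fit let 4 genes pass as higher, where 11.1% of all probes did: Traf1 (0.51), Traf3 (0.44), Tnfaip3 (0.33) and Birc2 (0.26). On the slide 1 arrays alone the same genes differed by 0.51, 0.42, 0.32 and 0.25 and 0 of 9 passed, as did 0 of all probes.

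Anti-CD86 alone likewise called 0 of 9 genes without the slide term (2.17% of all probes). An unadjusted p under 0.05 was found for 3 of them and for 7331 of the 31601 probes tested. Cflar was 0.68 ± 0.22 below unstimulated cells (95% interval -1.20 to -0.17), Traf1 0.35 ± 0.14 below and Traf2 0.31 ± 0.11 below. With the slide as a term 7 genes passed, among 28.5% of all probes. Of these, Cflar (-0.48), Traf1 (-0.25) and Traf2 (-0.25) were lower and Traf3 (0.44), Traf5 (0.33), Birc2 (0.26) and Traf6 (0.24) were higher, so that Traf1 and Traf5 lay on the opposite side of unstimulated cells from where anti-CD40 placed them. On slide 1 alone the 7 differences had the same signs, from -0.49 for Cflar to 0.41 for Traf3, and 0 passed (0.0127% of all probes).

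**Figure D3:**
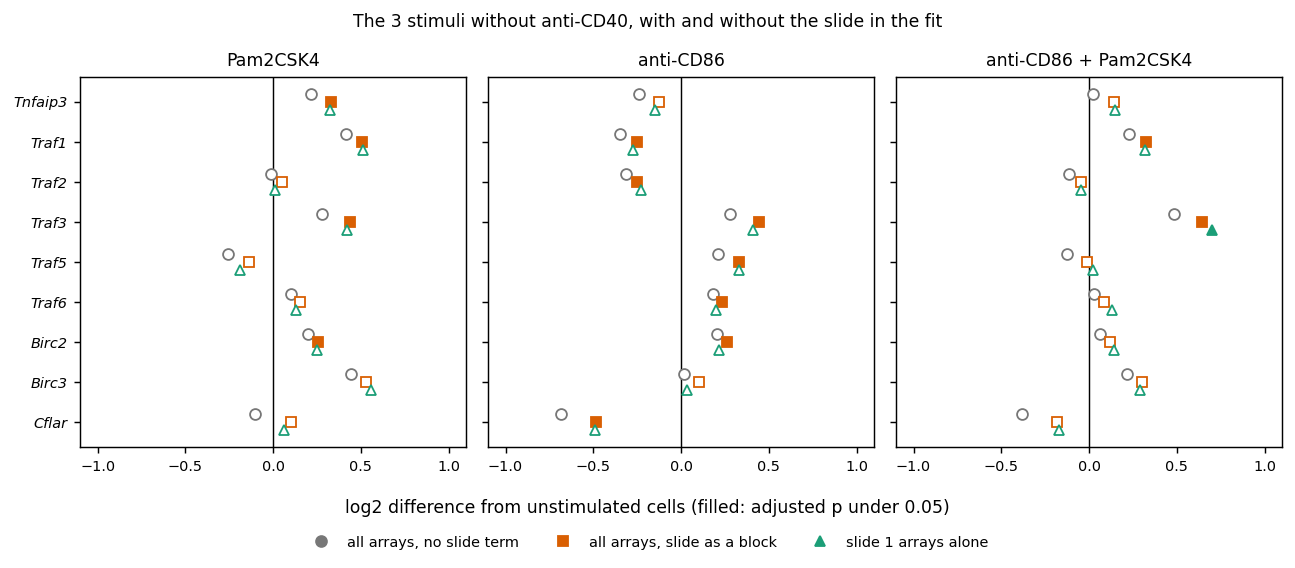
Log2 difference of each gene from unstimulated cells after the 3 stimuli without anti-CD40, from the fit over all arrays without the slide (circles), with the slide as a term (squares) and from slide 1 arrays alone (triangles); filled symbols passed at an adjusted p under 0.05. Squares and triangles lie close to each other, and filled squares number 4, 7 and 2.

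Anti-CD86 with Pam2CSK4, the stimulation that the study is about, called 0 of the 9 genes against unstimulated cells, where 10.8% of all probes passed. Traf3 had the largest difference, 1.40-fold higher (0.48 ± 0.19, 95% interval 0.05 to 0.92, adjusted p = 0.129). It was the 1 gene with an unadjusted p under 0.05, which 9645 of the 31601 probes tested had. Cflar was 0.38 ± 0.22 lower on its brightest probe, while its other probes differed by 0.17, 0.078 and 0.00079. Tnfaip3 (0.03), Traf6 (0.03) and Birc2 (0.06) were closest to unstimulated cells. Adding the slide let Traf3 (0.64) and Traf1 (0.32) pass as higher, among 35.1% of all probes, and on slide 1 alone Traf3 passed (0.70) with 20.2% of all probes. Against Pam2CSK4 alone 0 of 9 genes passed (0.0633% of all probes), with differences from -0.28 for Cflar to 0.20 for Traf3. An unadjusted p under 0.05 was reached there by 0 genes and by 3283 of the 31601 probes tested. Against anti-CD86 alone 0 of 9 passed (0.225%), Traf1 being 0.58 ± 0.14 higher (adjusted p = 0.251). Traf1 was the 1 gene with an unadjusted p under 0.05, which 2812 of the 31601 probes tested had. In the fit with the slide Traf1 (0.58) and Tnfaip3 (0.27) passed in that comparison, among 7.74% of all probes. The CD86 by TLR2 interaction passed for 0 of 9 genes (0.0190% of all probes), from -0.34 for Birc2 to 0.40 for Cflar, and for 0 with the slide as a term. It had an unadjusted p under 0.05 for 0 genes and for 1357 of the 31601 probes tested.

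The conditions with anti-CD40 were then set against their counterparts directly. Anti-CD40 differed from anti-CD86 in 6 of 9 genes (10.1% of all probes), with Traf1 1.40, Birc3 0.92, Tnfaip3 0.81, Birc2 0.67 and Traf6 0.55 higher and Traf5 1.51 ± 0.16 lower on the log2 scale. Both conditions have 1 array on each slide, and the Traf5 difference was -1.49 on slide 1 and -1.54 on slide 2, that of Traf1 1.45 and 1.36. Cflar was 0.83 ± 0.22 higher and missed narrowly (adjusted p = 0.0551). The fit with the slide called 8 genes (34.8% of all probes), now with Cflar (0.83, adjusted p = 0.000353) and Traf2 (0.22, 0.0189) higher. Under median centring the Traf2 difference was -0.21. The calls of Tnfaip3, Traf6, Birc2 and Birc3 in this comparison were lost without either anti-CD86 array, and those of Traf1 and Traf5 were kept.

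Anti-CD40 + Pam2CSK4 differed from anti-CD86 + Pam2CSK4 in 7 genes (12.3% of all probes). Traf1 was 2.68-fold (1.42 ± 0.14), Birc3 2.20-fold (1.14 ± 0.17) and Cflar 2.18-fold (1.13 ± 0.22, adjusted p = 0.0166) higher. Birc2 and Tnfaip3 were each 1.89-fold and Traf6 1.85-fold higher, and Traf5 was 2.27-fold lower. The Cflar call was lost without either anti-CD40 + Pam2CSK4 array or anti-CD86 + Pam2CSK4 replicate 2 (adjusted p up to 0.110), that of Tnfaip3 without either anti-CD40 + Pam2CSK4 array (0.0595) and that of Birc3 without anti-CD40 + Pam2CSK4 replicate 1 (0.0523). In the fit with the slide Traf2 (0.18, adjusted p = 0.0435) passed as well (34.6% of all probes).

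Against Pam2CSK4 alone, anti-CD40 + Pam2CSK4 differed in 6 genes (9.97% of all probes), Traf1 by 1.24, Birc3 by 0.91, Traf6 by 0.82, Birc2 by 0.78, Tnfaip3 by 0.73 and Traf5 by -1.06. The Tnfaip3 and Birc3 calls were lost without either anti-CD40 + Pam2CSK4 array or Pam2CSK4 replicate 2 (adjusted p up to 0.127 and 0.107), that of Traf5 without anti-CD40 + Pam2CSK4 replicate 1 (0.0646) and that of Birc2 without its replicate 2 (0.0607). The fit with the slide called 8 genes (31.5% of all probes), adding Traf3 (0.40, adjusted p = 0.00614) and Cflar (0.64, 0.00137). These comparisons share arrays with each other and with those against unstimulated cells, so they are not independent.

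The 4 Cflar probes did not give 1 answer. In anti-CD40 + Pam2CSK4 against unstimulated cells the brightest probe differed by 0.74, and the others, in order of brightness, by 0.82 (adjusted p = 0.0154), 0.67 (0.101) and 0.87 (0.0102), so that 2 of 4 passed and all 4 were higher. In anti-CD40 alone the same 4 values were 0.15, 0.24, 0.73 and 0.27 and none passed. For probe 3 in this order the 2 anti-CD40 conditions differed by -0.07, while the other 3 differed by 0.58 to 0.60. With anti-CD40 probe 3 was at -1.06 in replicate 1 and -0.37 in replicate 2, the array that stood apart. With anti-CD40 + Pam2CSK4 it was at -0.73 and -0.83, between those 2 levels. Its 0.73 and -0.07 thus depend on replicate 2 and cannot tell a difference between probes from that array. Probe 3 was also dim (mean level -1.25), as was the last probe (-1.99). After anti-CD86 all 4 probes were below unstimulated cells, by 0.68, 0.18, 0.40 and 0.29, and none passed. After anti-CD86 + Pam2CSK4 only the brightest probe was below, by 0.38. The other 3 were above by 0.17, 0.078 and 0.00079, and none passed. The first 2 probes are listed under one Cflar transcript record and the last 2 under another.

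**Figure D4:**
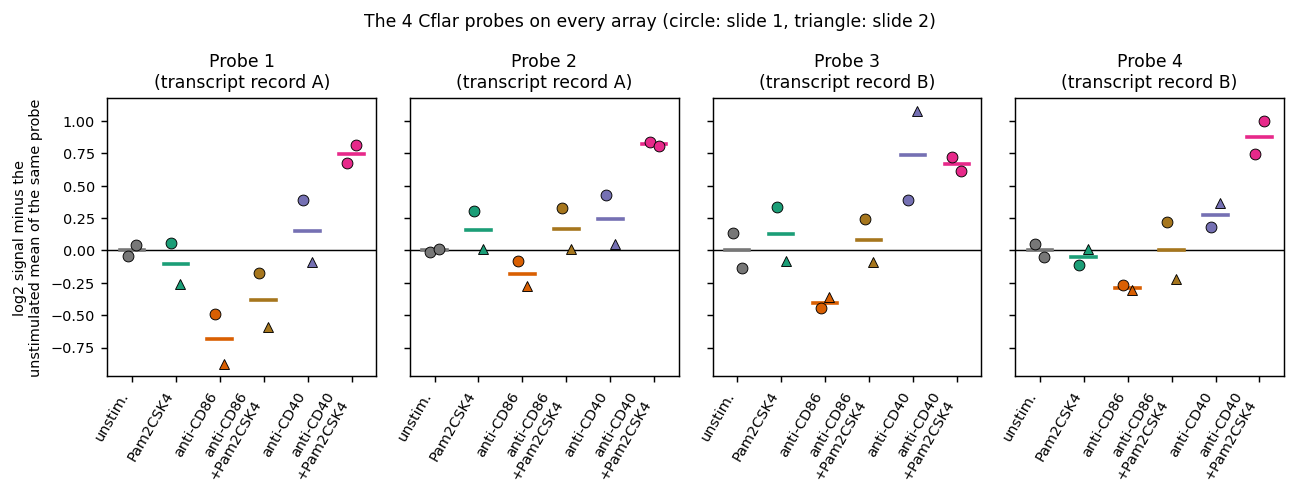
Signal of the 4 Cflar probes, in order of brightness and with the transcript record of each, on every array, as log2 difference from the unstimulated mean of the same probe; circles are slide 1, triangles slide 2 and bars means of 2 arrays. All 4 probes are highest or second highest with anti-CD40 + Pam2CSK4 and lowest with anti-CD86.

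Around these genes, a list of 48 further genes of the same pathways was examined (other TRAF binders, A20 binders, kinases such as NIK and the IKK and RIP kinases, ubiquitin ligases and conjugating enzymes, other inhibitors of apoptosis and caspase-8 partners), of which 44 were tested. Against unstimulated cells 0 passed with Pam2CSK4 and 0 with anti-CD86, 2 were higher and 4 lower with anti-CD86 + Pam2CSK4, 4 and 4 with anti-CD40, and 5 and 4 with anti-CD40 + Pam2CSK4. These shares of 13.6%, 18.2% and 20.5% stand beside 10.8%, 16.8% and 18.2% of all probes. The list's median difference was -0.12, -0.10 and -0.05 in these comparisons and that of all probes -0.03, -0.02 and 0.01. Traip, a ubiquitin ligase that binds TRAF proteins, fell by 1.57 ± 0.15 with anti-CD40 + Pam2CSK4 and by 0.84 with anti-CD86 + Pam2CSK4. Peli1, a Pellino ligase acting on IRAK complexes, fell by 1.23 ± 0.12 with anti-CD40 + Pam2CSK4, by 0.88 with anti-CD40 and by 0.51 with anti-CD86 + Pam2CSK4. Peli2, its relative, fell by 1.12 ± 0.18 with anti-CD40 + Pam2CSK4. Ikbke, an IKK-related kinase, rose by 1.16 ± 0.15 with anti-CD86 + Pam2CSK4, 1.12 with anti-CD40 and 1.07 with both anti-CD40 and Pam2CSK4. Its probe was dim, which limits these differences. Its mean level was -3.25 in unstimulated cells and -2.09, -2.13 and -2.18 in these conditions, in that order. With anti-CD40 + Pam2CSK4 Birc5 (survivin) rose by 1.01 ± 0.12 and Tank, a TRAF-binding adaptor, by 0.85 ± 0.14, and with anti-CD40 alone by 0.88 and 0.52.

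Among the 9 genes, levels over the 12 arrays were most alike for Traf6 and Birc2 (Pearson r = 0.99), Tnfaip3 and Traf1 (0.99) and Traf1 and Birc3 (0.97), and most opposed for Traf1 and Traf5 (-0.92). Over all array genes compared (11602), the genes most like Traf1 were Fas (0.997), Myc (0.994) and Ebi3 (0.993). Those most like Traf5 were Fam65b, now named Ripor2 (0.994), Gne (0.993) and Arhgap25 (0.991), and those most like Cflar were Gm5080 (0.990), Cycs (0.988) and Gpr183 (0.987). These coefficients describe 12 arrays that share their conditions and slides.

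The cells carried the defining markers of B cells, with 7 of 7 listed genes above background on all 12 arrays. Markers of other cells were also present: 5 of 6 T cell, 6 of 6 myeloid, 2 of 3 NK cell, 3 of 3 red cell and 3 of 3 plasma cell genes were above background on all 12 arrays. The log2 of the summed T cell marker signal was 4.42 to 4.44 in unstimulated cells, 4.02 to 4.37 with anti-CD40 and 4.44 to 4.45 with anti-CD40 + Pam2CSK4, and that of myeloid markers 3.78 to 3.78, 3.02 to 3.38 and 3.63 to 3.64. The summed B cell signal was 8.38 to 8.50, 8.46 to 8.69 and 8.74 to 8.92, and the summed plasma cell signal 3.47 to 3.47, 4.95 to 5.0 and 5.20 to 5.28, with mean levels of Irf4 at 2.90, 4.88 and 5.15 and of Sdc1 at 1.47, 0.46 and 0.51. The sums of NK cell markers were 2.59 to 2.61, 1.95 to 2.04 and 2.25 to 2.29, and of red cell markers 6.40 to 6.41, 6.11 to 6.52 and 6.68 to 6.68. With anti-CD86 the sums were 4.12 to 4.30 (T cell), 3.17 to 3.42 (myeloid), 8.28 to 8.41 (B cell), 3.62 to 3.65 (plasma cell), 2.14 to 2.18 (NK cell) and 5.87 to 6.20 (red cell). With Pam2CSK4 they were 4.12 to 4.43 (T cell), 3.82 to 4.06 (myeloid), 8.33 to 8.52 (B cell), 4.23 to 4.29 (plasma cell), 2.35 to 2.38 (NK cell) and 6.18 to 6.52 (red cell), and with anti-CD86 + Pam2CSK4 3.96 to 4.40, 3.43 to 3.79, 8.39 to 8.56, 4.28 to 4.29, 1.99 to 2.01 and 6.31 to 6.73 in the same order. The plasma cell sum was thus above that of unstimulated cells in all 5 stimulated conditions, but its 3 genes did not move together. Mean Irf4 was higher in all 5. Mean Prdm1 was -0.22 in unstimulated cells and lower in all 5, at -0.25 with Pam2CSK4, -0.53 with anti-CD86, -0.77 with anti-CD86 + Pam2CSK4, -0.63 with anti-CD40 and -0.31 with anti-CD40 + Pam2CSK4. Mean Sdc1 was higher only with anti-CD86 (1.63 against 1.47). The part of other cells in the results for the 9 genes was not tested.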

How the data were processed

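RB cell RNA had been labelled with Cy3 and hybridised to a custom Agilent mouse array of 61657 non-control spots (61307 probes), 1 array for each of 12 samples on 2 slides. The authors extracted the deposited processed intensity values with Feature Extraction 10.5.1.1, which subtracts background. The deposited table of log2 values differed from log2 of these intensities by 1 constant for each array, close to the array's 75th percentile. Groups and replicate numbers were taken from the labels. Here log2 intensity minus the 75th percentile of its array was used, outlier spots were set aside, and spots of a probe were averaged. Tests covered the 31601 probes measured on all 12 arrays that stood well above background in both replicates of 1 or more groups. One limma model (version 3.58.1, R 4.3.3) with a mean for each of the 6 groups gave moderated tests, and p-values were adjusted over all probes by Benjamini-Hochberg at 0.05. With 2 arrays a group, p-values measure the spread between these arrays. The script was tested on simulated data. Figures were drawn with matplotlib 3.10.9.

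The 9 members, the pathway list and the marker lists were chosen with earlier results of these data known. Named genes were all 9 members, the 6 genes of the pathway list with the largest difference among those called against unstimulated cells, and the 3 genes most correlated with each of the 3 members of widest range. Cell type sums are log2 of the summed linear signal of the listed markers. The alternatives tried were normexp background correction (offset 50), scaling by the median or by quantiles, the deposited table, no filter or a stricter filter, the slide as a block or slide 1 alone, the replicate number as a block, the median over a gene's probes, leaving out each array, and the methods' one-way test. Of the promoter motifs planned, 1 is not reported here.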

Additional observations from a re-analysis of the deposited data

How the results depend on the processing

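Counts of members called depended most on the slide and on the scaling. A slide block gave 4 calls for Pam2CSK4, 7 for anti-CD86 and 2 for anti-CD86 + Pam2CSK4 against unstimulated cells (0 each without it), 2 for anti-CD86 + Pam2CSK4 against anti-CD86 and 4 for anti-CD40 + Pam2CSK4 against anti-CD40 (0 each without it). A slide block raised the calls for anti-CD40 against unstimulated cells and against anti-CD86 and for anti-CD40 + Pam2CSK4 against Pam2CSK4 from 6 to 8 each, and those for anti-CD40 + Pam2CSK4 against unstimulated cells and against anti-CD86 + Pam2CSK4 from 7 to 8. On slide 1 alone 1 was called for anti-CD86 + Pam2CSK4 against unstimulated cells. Under median normalization 1 was called for anti-CD40 against unstimulated cells (6 under the 75th percentile), 0 for anti-CD40 + Pam2CSK4 against unstimulated cells (7), 0 against Pam2CSK4 (6), 0 against anti-CD86 + Pam2CSK4 (7), 1 for anti-CD40 against anti-CD86 (6) and 1 over the 6 groups (7). Of all probes, median normalization called 348, 464, 241, 272, 377 and 1013 in the same order. With median normalization and anti-CD40 replicate 2 left out, chosen after seeing the data, 0 were called for anti-CD40 against unstimulated cells (189 of all probes), 0 against anti-CD86 and 1 over the 6 groups. Median normalization moved the median difference of all probes by -0.20 (Pam2CSK4), -0.14 (anti-CD86), -0.29 (anti-CD86 + Pam2CSK4), -0.57 (anti-CD40) and -0.11 (anti-CD40 + Pam2CSK4) against unstimulated cells. Quantile normalization called 1 for anti-CD86 and 2 for anti-CD86 + Pam2CSK4 against unstimulated cells, 1 for anti-CD86 + Pam2CSK4 against anti-CD86 and 1 for anti-CD40 + Pam2CSK4 against anti-CD40, where normexp also called 1. Of all probes, quantile normalization called 1627, 4012, 103 and 1248 in the same order, and normexp 849 in the last. With no filter on dim probes 3 were called for anti-CD40 against unstimulated cells (1112 of all probes) and 2 against anti-CD86 (1201). The deposited table gave the same counts in all comparisons. The plain one-way test of the methods had 9 members at an unadjusted p under 0.05 and 6 after Benjamini-Hochberg adjustment. Of the 31601 probes tested it had 11200 and 5805. The causes were not tested.

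Over all probes, the call for anti-CD40 against unstimulated cells covered 5323 probes, 348 under median normalization, 1112 with no filter and 11777 with the slide as a block, and that for anti-CD40 + Pam2CSK4 5763, 464, 2486 and 14997. For anti-CD86 + Pam2CSK4 it covered 3410, 132, 26 and 11084, for anti-CD86 686, 68, 0 and 8991, and for Pam2CSK4 46, 96, 8 and 3510.

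Leaving out 1 array gave 3 to 5 members for anti-CD40 against unstimulated cells (3 without unstimulated replicate 2), 6 in every case for anti-CD40 + Pam2CSK4, 3 to 6 for anti-CD40 + Pam2CSK4 against Pam2CSK4 (3 without either anti-CD40 + Pam2CSK4 array), 4 to 7 for anti-CD40 + Pam2CSK4 against anti-CD86 + Pam2CSK4 (4 without anti-CD40 + Pam2CSK4 replicate 1), 2 to 6 for anti-CD40 against anti-CD86 (2 without either anti-CD86 array), 0 to 1 for anti-CD40 + Pam2CSK4 against anti-CD40 (1 without anti-CD40 replicate 1), 5 to 7 over the 6 groups, and 0 in the remaining comparisons. Where an arm had 1 array it was assumed to vary like the other groups.

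Arrays with the same replicate number deviated together only for the 4 conditions that span both slides (correlations 0.54 to 0.67 over 6 pairs, against -0.11 to 0.07 over the 9 pairs with unstimulated or anti-CD40 + Pam2CSK4 arrays). In those 4 conditions replicate number and slide coincide, so the correlations cannot tell a pairing of samples from the slide. For unstimulated and anti-CD40 + Pam2CSK4 arrays, all on slide 1, the correlation was 0.07. With the replicate number as a block 2 members were called for anti-CD40 + Pam2CSK4 against anti-CD40 (2041 of all probes). Against unstimulated cells 6 and 8 were called for anti-CD40 and anti-CD40 + Pam2CSK4 (9427 and 8542 of all probes).

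None of the 32 calls changed direction, whereas some differences that were not called did. Under median normalization the reversed differences were Traf6 (-0.10) with Pam2CSK4, Birc3 (-0.12) with anti-CD86, and Traf3 (-0.38) and Cflar (-0.42) with anti-CD40. With anti-CD86 + Pam2CSK4 they were Tnfaip3 (-0.26), Traf1 (-0.056), Traf6 (-0.26), Birc2 (-0.22) and Birc3 (-0.069). Under quantile normalization they were Traf2 (0.11) and Cflar (0.015) with Pam2CSK4, Traf2 (0.061) and Traf5 (0.062) with anti-CD86 + Pam2CSK4 and Traf2 (0.026) with anti-CD40. The median over the Cflar probes gave 0.14 with Pam2CSK4 and 0.12 with anti-CD86 + Pam2CSK4. A slide block turned Traf2 (0.051) and Cflar (0.10) with Pam2CSK4, and slide 1 alone turned Traf2 (0.0097) and Cflar (0.060) with Pam2CSK4 and Traf5 (0.023) with anti-CD86 + Pam2CSK4. Leaving out 1 array gave ranges across 0 for Traf2 (-0.036 to 0.0097) and Cflar (-0.26 to 0.060) with Pam2CSK4, both reversed without Pam2CSK4 replicate 2, for Cflar with anti-CD40 (-0.090 to 0.39, reversed without its replicate 1), and for Birc3 with anti-CD86 (-0.19 to 0.23, reversed without anti-CD86 replicate 1 or unstimulated replicate 2). With anti-CD86 + Pam2CSK4 they were Tnfaip3 (-0.10 to 0.15), Traf6 (-0.072 to 0.13) and Birc2 (-0.017 to 0.14), reversed without its replicate 1, Traf6 also without unstimulated replicate 2, and Traf5 (-0.28 to 0.023), reversed without its replicate 2.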
